A study of Mus musculus with 12 samples.

Results

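The genes described here are 8 receptor genes by which nerve and hormone signals reach cells of bone and marrow, among the 49585 genes counted in each library. They were chosen by symbol, after the Ensembl identifiers of the files had been matched to mouse gene symbols, and all 8 were found. They comprise the beta-adrenergic receptor genes Adrb1 and Adrb3, the parathyroid hormone receptor gene Pth1r, the calcitonin gene-related peptide (CGRP) receptor gene Calcrl with its partner genes Ramp1, Ramp2 and Ramp3, and the prokineticin receptor gene Prokr1. RNA-seq had been carried out on 4 populations sorted at steady state from wild-type male C57BL/6 mice aged 8 to 10 weeks, in a study of the stromal cells that support haematopoietic stem cells, with 3 libraries of 2000 cells for each. All 4 populations were sorted as CD45-, Ter119- and CD31-. Itga8+ MSCs (mesenchymal stem cells) were in addition Itga8+, Alcam+ and Sca-1-. Itga8- Alcam+ BLCs (bone-lining cells), which the labels call osteoblasts, were Alcam+ and Sca-1- without Itga8. Sca-1+ MSCs were Alcam- and Sca-1+, and CD51+CD140a+ MSCs were gated on those markers alone. The first 3 populations came from bone fragments digested with collagenase after the marrow had been flushed out, and CD51+CD140a+ MSCs from flushed marrow digested with Accumax, so population and tissue source cannot be told apart in a comparison with CD51+CD140a+ MSCs. No source used here says whether the libraries of a population came from separate mice, and the p-values therefore measure only the spread between these libraries.

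Sympathetic nerves release noradrenaline, which acts on beta-adrenergic receptors, and sensory nerves release CGRP. The CGRP and adrenomedullin receptors are built from 1 receptor protein, encoded by Calcrl, which reaches the cell surface only with a receptor activity-modifying protein (RAMP). With the product of Ramp1 it binds CGRP, and with those of Ramp2 or Ramp3 it binds adrenomedullin. The receptor encoded by Pth1r binds parathyroid hormone and the related peptide encoded by Pthlh, and is a known regulator of osteoblasts. Prokineticins are secreted peptides that act through the receptors encoded by Prokr1 and Prokr2. The beta-adrenergic, parathyroid hormone and CGRP receptors couple to the stimulatory G protein encoded by Gnas and raise cyclic AMP.

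The libraries held between 17580677 and 31332475 counted reads. Levels are given as CPM, the read count scaled to a common library size, with TMM factors, or, where genes are compared with each other, as TPM, which also corrects for exon length, and 3 counts in a library, the limit that a count of 0 allows, corresponded to 0.0820 to 0.180 CPM. These limits cover counting error only, since PCR copies cannot be told from separate molecules. The sorted labels were read against their markers. Ly6a, which encodes Sca-1, was at 611 to 659 CPM in Sca-1+ MSCs and at most 35.7 CPM elsewhere, Bglap, an osteoblast gene, was at 1176 to 6983 CPM in Itga8- Alcam+ BLCs and at most 15.0 CPM elsewhere, and Lepr was at 5727 to 6739 CPM in CD51+CD140a+ MSCs and at most 214 CPM elsewhere. Lepr was not part of the gate of CD51+CD140a+ MSCs. Of the genes gated on, Pdgfra, which encodes CD140a, was at 682 to 867 CPM there and 734 to 1019 CPM in Sca-1+ MSCs. Itgav, which encodes CD51, was at 121 to 195 CPM there and 126 to 150 CPM in Sca-1+ MSCs. Neither gene thus set these populations apart. The Alcam+ populations had at most 148 CPM of Pdgfra and 118 CPM of Itgav. Itga8 itself was at 35.2 to 199 CPM in Itga8+ MSCs, at 53.1 to 82.9 CPM in CD51+CD140a+ MSCs and at most 4.17 CPM in the other populations. Alcam was low even where it had been sorted for, at 3.01 CPM in the mean in Itga8+ MSCs and 4.92 CPM in Itga8- Alcam+ BLCs, and at most 0.139 CPM in the mean in the rest. Libraries of Itga8+ MSCs were the least alike, with Pearson's r across genes of 0.854 to 0.962, against 0.980 to 0.988 in CD51+CD140a+ MSCs. In sorted bulk samples, fewer cells that carry a transcript and less of it per cell cannot be told apart.

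On the mouse assembly GRCm38, also called mm10, Adrb1 lies at chr19:56722199-56733113 (+ strand), Adrb3 at chr8:27225776-27250616 (- strand) and Prokr1 at chr6:87578591-87590743 (- strand). Pth1r lies at chr9:110722085-110747145 (- strand) and Calcrl at chr2:84330626-84425411 (- strand). Ramp1 lies at chr1:91179822-91225196, Ramp2 at chr11:101246028-101259546 and Ramp3 at chr11:6658521-6677475, all on the + strand. All are protein-coding and were measured over their exons. Of the exon bases of Ramp2, 33.4% are also exons of Vps25 on the same strand, through a Ramp2 transcript that runs on into Vps25, so reads there belong to neither gene alone. Of the exon bases of Adrb3, 24.9% lie opposite Gm45470, and the opposite overlaps of Ramp3 (with Gm11978) and Pth1r (with Myl3) took 7.32% and 3.25%. The use of strand in the counting is not given in the sources used here, and counts over these bases are uncertain. Myl3 was at most 5.10 CPM, Gm45470 at most 0.773 CPM and Gm11978 at most 0.467 CPM in any library. Vps25, which encodes a subunit of an endosomal sorting complex, was at most 0.300 CPM. How reads over the bases shared with Ramp2 were counted is not known, so this value does not show that Vps25 was little expressed.

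The 250 bases before the transcription start were read from RefSeq (GRCm38.p6) for Pth1r and Ramp1, which had their highest means in Itga8- Alcam+ BLCs, and Prokr1, which had its highest in Sca-1+ MSCs, and are shown 5′ to 3′ on the strand of the gene. RefSeq entries were matched for 6 of the 8 genes, all but Adrb3 and Ramp2. Capitals mark the motifs that were found among those searched on both strands, which were the cAMP response element TGACGTCA, its shorter core TGACG, the AP-1 motif TGANTCA, the RUNX core TGTGGT, the GC box GGGCGG and the TATA box TATAAA. The shorter core lies within the full element, so a match of the latter counts for both. The first sequence is at chr9:110747146-110747395 (- strand), the second at chr1:91179572-91179821 (+ strand) and the third at chr6:87590744-87590993 (- strand).
Pth1r: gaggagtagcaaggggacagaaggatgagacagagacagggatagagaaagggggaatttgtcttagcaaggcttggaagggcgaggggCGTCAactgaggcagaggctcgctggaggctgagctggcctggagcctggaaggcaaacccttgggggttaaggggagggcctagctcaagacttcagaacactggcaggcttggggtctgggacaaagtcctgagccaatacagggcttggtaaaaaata
Ramp1: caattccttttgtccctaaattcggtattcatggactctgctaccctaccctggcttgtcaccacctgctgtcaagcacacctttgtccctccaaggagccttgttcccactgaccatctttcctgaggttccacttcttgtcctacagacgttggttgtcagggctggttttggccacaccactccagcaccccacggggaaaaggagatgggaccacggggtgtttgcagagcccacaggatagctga
Prokr1: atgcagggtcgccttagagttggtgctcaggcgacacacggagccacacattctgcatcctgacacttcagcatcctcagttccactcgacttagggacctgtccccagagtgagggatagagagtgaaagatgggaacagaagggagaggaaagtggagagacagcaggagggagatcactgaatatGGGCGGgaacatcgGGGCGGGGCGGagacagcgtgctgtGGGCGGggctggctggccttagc
The outermost of 3 Pth1r starts in the table, shown here, had 56.0% G and C and 1 match of the TGACG core, which 17.8% of the 32851 promoters of this length hold. The other Pth1r starts, not shown, had 65.6% and 70.4% G and C, no such core, and 1 and 4 GC boxes. The Ramp1 stretch had 54.0% G and C and none of the motifs searched. The Prokr1 stretch had 58.8% G and C and 4 GC boxes, of which 1 pair overlaps, a motif that 32.7% of these promoters hold. The full cAMP response element occurred in 1.55% of all promoters, the RUNX core in 14%, the AP-1 motif in 6.75% and the TATA box in 12.4%, and in none of these 3 stretches. A match describes letters in this window and is not a measured site.

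Pth1r and Ramp1 had their highest means in Itga8- Alcam+ BLCs, Ramp2 and Prokr1 in Sca-1+ MSCs, and Adrb3 and Calcrl in CD51+CD140a+ MSCs. For Ramp3, Itga8+ MSCs and Itga8- Alcam+ BLCs had similar means, 2.06 and 2.01 CPM, and without Itga8+ replicate 2 the former was 0.808 CPM. Adrb1 had 1 read in all. Of the 8 genes, 7 passed the filter of 0.5 CPM in at least 1 library, and Adrb1 did not. The plot of receptor gene levels shows these patterns by library.

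**Figure D1:**
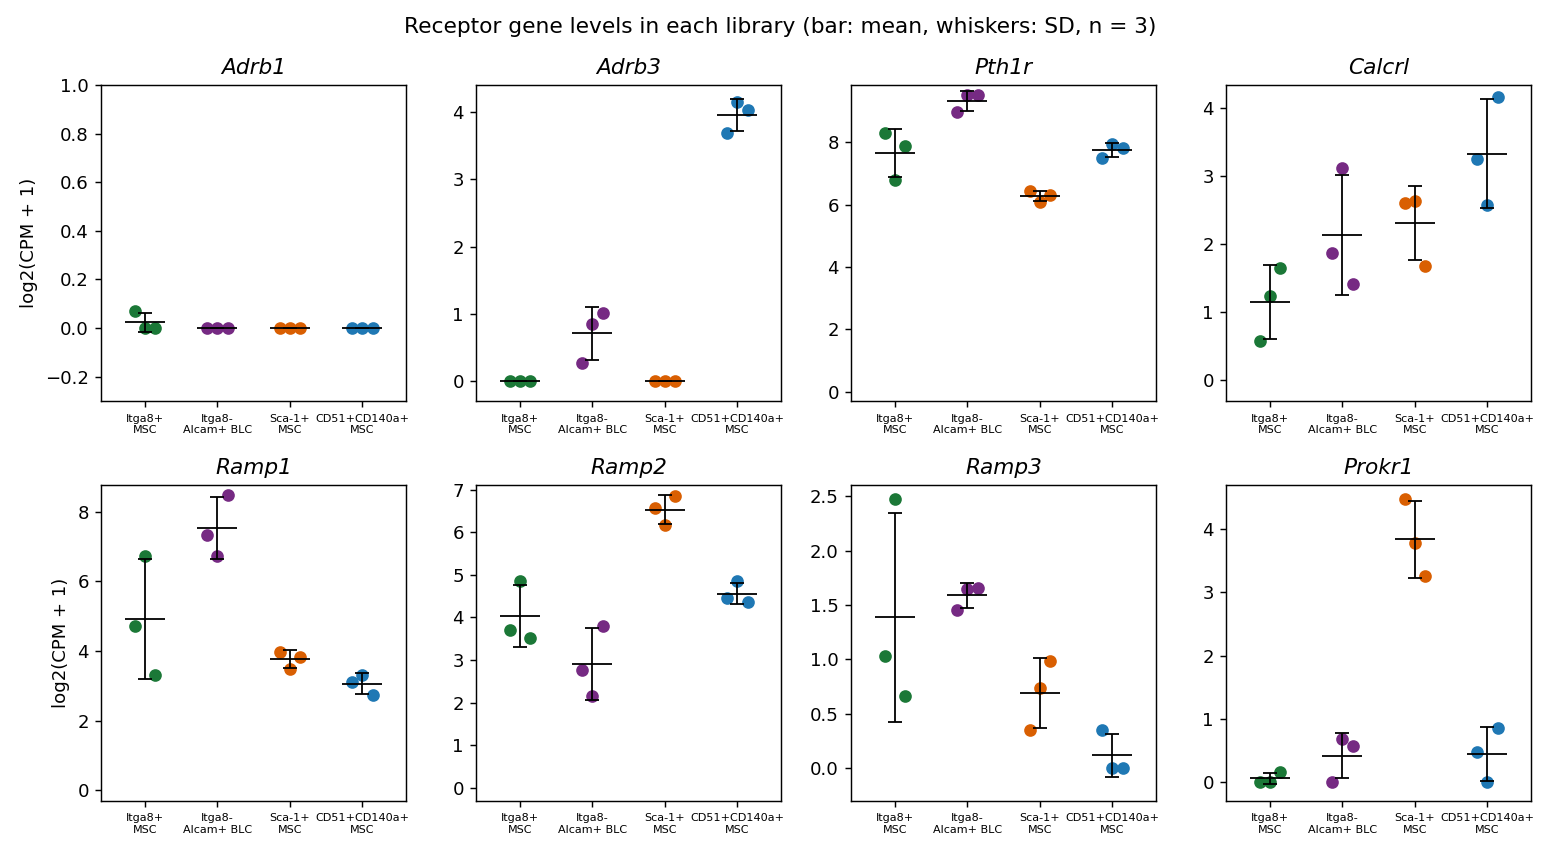
Levels of the 8 receptor genes as log2(CPM + 1) on the vertical axes, whose ranges differ, for the 4 populations on the horizontal axes. Each point is 1 of 3 libraries, the wide bar is their mean and the whiskers are the SD on this scale. Prokr1 was at 8.62 to 21.4 CPM in Sca-1+ MSCs and at most 0.805 CPM elsewhere, and Adrb3 was at 11.9 to 16.8 CPM in CD51+CD140a+ MSCs and at most 1.02 CPM elsewhere.

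Adrb1 (ENSMUSG00000035283), the beta receptor best known from the heart, was not detectable at this depth. A single read was counted in Itga8+ replicate 1, or 0.0495 CPM, and none in the other libraries, and the gene was not tested. Adrb3 (ENSMUSG00000031489), the beta receptor best known from adipocytes, was counted at 11.9, 16.8 and 15.4 CPM in CD51+CD140a+ MSCs replicates 1 to 3. In Itga8- Alcam+ BLCs it was at 0.199, 0.788 and 1.02 CPM. No read was counted in any library of Itga8+ MSCs or Sca-1+ MSCs. The libraries of CD51+CD140a+ MSCs thus lay above all others, and those of Itga8- Alcam+ BLCs lay between them and the populations with no read. The level in CD51+CD140a+ MSCs was 21.9-fold higher than in Itga8- Alcam+ BLCs (log2 fold change 4.45, standard error 0.642, FDR = 0.00139). With 3 counts per library in place of 0, it was at least 92.2-fold higher than in Itga8+ MSCs (FDR = 0.000151) and at least 95.9-fold above Sca-1+ MSCs (FDR = 0.000165). In Itga8- Alcam+ BLCs the level was at least 4.20-fold higher than in Itga8+ MSCs (FDR = 0.0217) and at least 4.37-fold above Sca-1+ MSCs (FDR = 0.00506). The call between Itga8- Alcam+ BLCs and Itga8+ MSCs rests on 38 reads and was lost in a fit of those populations alone (FDR = 0.206).

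Of 6 adipocyte markers, Adipoq moved with Adrb3. It is also expressed by marrow stromal cells, and it was at 2247 ± 146 CPM (SD, n = 3) in CD51+CD140a+ MSCs and at most 51.3 CPM in any other library. The summed level of the 6 genes was 2086 to 2361 CPM in CD51+CD140a+ MSCs, 18.7 to 73.6 CPM in Itga8- Alcam+ BLCs, 15.7 to 41.2 CPM in Itga8+ MSCs and 2.06 to 5.92 CPM in Sca-1+ MSCs. Without Adipoq, a sum added after the data were seen, it was 5.38 to 22.3 CPM in Itga8- Alcam+ BLCs (mean 11.7 CPM), 5.87 to 14.9 CPM in CD51+CD140a+ MSCs (mean 10.4 CPM), 0.982 to 14.1 CPM in Itga8+ MSCs (mean 5.79 CPM) and 1.59 to 3.54 CPM in Sca-1+ MSCs (mean 2.58 CPM). Most of the rest was Fabp4, at 9.67 CPM in the mean in CD51+CD140a+ MSCs and 10.7 CPM in Itga8- Alcam+ BLCs. Plin1, the gene of a lipid droplet protein, had its highest mean in CD51+CD140a+ MSCs, at 0.701 CPM (0.0273 to 1.72 CPM), against 0.512 CPM in Itga8- Alcam+ BLCs, 0.0385 CPM in Itga8+ MSCs and no read in Sca-1+ MSCs. Cidec had no read in CD51+CD140a+ MSCs and a mean of at most 0.460 CPM elsewhere, and Ucp1 and Lep had no read in any of the 4 populations. The part of fat cells in the level of Adrb3 was not tested. The 3 genes with at least 10 CPM whose pattern over the 12 libraries was most like that of Adrb3 were Akr1c12 (Pearson's r = 0.992 of log2(CPM + 1)), Adap2 (r = 0.991) and Aqp7 (r = 0.990). These values describe libraries that fall into 4 populations, and no test was made of them.

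Of 6 further adrenergic receptor genes tested, all 6 were called in at least 1 comparison, as were 54.2% of all genes tested. The call was made in 5 of them, against 20.5% of all genes, for CD51+CD140a+ MSCs against Sca-1+ MSCs, with 4 higher and 1 lower in the former. The median log2 fold change of these 6 genes, Sca-1+ MSCs over CD51+CD140a+ MSCs, was -2.70, and that of all genes tested was -0.0026. Adra2c, an inhibitory alpha receptor gene, was at 7.37 ± 2.99 CPM in Itga8- Alcam+ BLCs and 3.11 ± 1.84 CPM in Itga8+ MSCs, and higher in both than in Sca-1+ MSCs (0.0781 ± 0.135 CPM, FDR = 0.00146 and 0.00603). Adra2a, of the same subfamily, was at 6.86 ± 3.68 CPM in Itga8+ MSCs and 9.40 ± 2.82 CPM in CD51+CD140a+ MSCs, and higher in both than in Sca-1+ MSCs, at 0.513 CPM in the mean (FDR = 0.00578 and 0.0018).

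Pth1r (ENSMUSG00000032492) had the highest mean level per length of the 8 genes in 3 of the 4 populations. In Sca-1+ MSCs, Pth1r was at 97.4 ± 12.5 TPM and Ramp2 at 105 ± 23.4 TPM (SD, n = 3), with more Pth1r in replicates 1 and 2 and more Ramp2 in replicate 3, but that order depends on the length of Ramp2. With the bases shared with Vps25 left out of it, an alternative chosen after the data were seen, Ramp2 was at 162, 120 and 189 TPM in replicates 1 to 3, above Pth1r in each. It was counted at 496, 739 and 731 CPM in Itga8- Alcam+ BLCs replicates 1 to 3, and at 317, 109 and 233 CPM in Itga8+ MSCs. In CD51+CD140a+ MSCs it was at 181, 244 and 225 CPM, and in Sca-1+ MSCs at 84.9, 67.0 and 77.9 CPM. The libraries of Itga8- Alcam+ BLCs lay above all others and those of Sca-1+ MSCs below all others, while Itga8+ MSCs and CD51+CD140a+ MSCs overlapped. Itga8- Alcam+ BLCs were 2.98-fold higher than Itga8+ MSCs (log2 fold change 1.58, standard error 0.358, FDR = 0.0399), 3.03-fold higher than CD51+CD140a+ MSCs (FDR = 0.00589) and 8.56-fold higher than Sca-1+ MSCs (3.10, standard error 0.379, FDR = 0.000228). Against Sca-1+ MSCs, the level was 2.87-fold higher in Itga8+ MSCs (FDR = 0.0144) and 2.83-fold higher in CD51+CD140a+ MSCs (FDR = 0.0115). Itga8+ MSCs and CD51+CD140a+ MSCs did not pass the test (log2 fold change 0.022, standard error 0.350, FDR = 0.973). The call between Itga8- Alcam+ BLCs and Itga8+ MSCs was the least stable of these. It was lost without Itga8- replicate 2 (log2 fold change of Itga8+ MSCs over Itga8- Alcam+ BLCs -1.46, FDR = 0.116), without Itga8- replicate 3 (-1.48, FDR = 0.133), with library totals alone (-1.26, FDR = 0.105) and when just those populations were fitted (-1.57, FDR = 0.302).

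Osteoblast markers moved with Pth1r in part. Their summed level, over 10 genes of which none was at 0, was 44789 to 117116 CPM in Itga8- Alcam+ BLCs, 18400 to 22088 CPM in Sca-1+ MSCs, 10411 to 20972 CPM in CD51+CD140a+ MSCs and 2932 to 9176 CPM in Itga8+ MSCs. Col1a1 made up most of it in Itga8- Alcam+ BLCs (66586 CPM in the mean) and in Sca-1+ MSCs (17261 CPM). Of the 10 genes, 8 had their highest mean in Itga8- Alcam+ BLCs, as Pth1r had, and Ibsp and Runx2 in CD51+CD140a+ MSCs. The lowest mean was in Sca-1+ MSCs for 5 genes, as for Pth1r, in Itga8+ MSCs for 4 and in CD51+CD140a+ MSCs for 1. Their part in the levels of Pth1r was not tested. Of the single markers, Sp7, the gene of a transcription factor needed for osteoblasts, and Alpl, the gene of bone alkaline phosphatase, were among the 3 genes whose pattern was most like that of Pth1r (Pearson's r = 0.970 and 0.958 over 12 libraries), with Prr5l (r = 0.970). Sp7 was at 153 ± 46.9 CPM in Itga8- Alcam+ BLCs, 36.1 ± 5.10 CPM in CD51+CD140a+ MSCs, 21.7 ± 11.4 CPM in Itga8+ MSCs and 1.84 ± 0.188 CPM in Sca-1+ MSCs (SD, n = 3).

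Pthlh, the gene of the ligand that acts on the same receptor from nearby cells, was at 63.9 ± 9.62 CPM in Sca-1+ MSCs, 36.9 ± 16.0 CPM in Itga8+ MSCs and 25.1 ± 11.6 CPM in Itga8- Alcam+ BLCs (SD, n = 3). In CD51+CD140a+ MSCs it was at 0 to 0.966 CPM, and each of the other populations was higher (log2 fold changes 7.66, 6.86 and 6.31 in the same order, with FDR = 0.000878, 0.00123 and 0.00176). The population with the highest mean of the ligand gene was thus the one with the lowest mean of the receptor gene. Of 18 genes known to respond to parathyroid hormone in bone cells, 16 were called in at least 1 comparison, beside the 54.2% of all genes given above. In Itga8+ MSCs against Itga8- Alcam+ BLCs 3 were called, 1 of them higher and 2 lower in the former, or 16.7% beside 3.82% of all genes. Igf1, a growth factor gene, was the higher one (135.5 ± 48.3 CPM against 33.4 ± 15.0 CPM, FDR = 0.0112), and Ptgs2, which encodes a prostaglandin synthase (36.7 ± 20.2 CPM against 354 ± 210 CPM, FDR = 0.00379), and Mmp13, which encodes a collagenase (7.73 ± 3.66 CPM against 79.2 ± 43.1 CPM, FDR = 0.0106), were the lower ones. Between Itga8- Alcam+ BLCs and Sca-1+ MSCs, which differed most in Pth1r, 5 of the 18 were called, with 1 higher and 4 lower in Itga8- Alcam+ BLCs, a share of 27.8% that is near the 26.4% of all genes. The median log2 fold change of the 18 genes there was -0.075, beside 0.12 for all genes tested. The largest share was for Itga8+ MSCs against CD51+CD140a+ MSCs, where Pth1r did not pass the test. There 15 were called, 6 higher and 9 lower in Itga8+ MSCs, or 83.3% beside 35.6% of all genes. For Itga8- Alcam+ BLCs against CD51+CD140a+ MSCs 13 were called, 6 higher and 7 lower, or 72.2% beside 35.3% of all genes. For Sca-1+ MSCs against CD51+CD140a+ MSCs 10 were called (55.6% beside 20.5%), and for Itga8+ MSCs against Sca-1+ MSCs 7 (38.9% beside 21.7%).

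Calcrl (ENSMUSG00000059588), the shared receptor subunit, was low in all populations. It was counted at 8.52, 4.93 and 16.8 CPM in CD51+CD140a+ MSCs replicates 1 to 3 and at 5.09, 5.19 and 2.20 CPM in Sca-1+ MSCs. In Itga8- Alcam+ BLCs it was at 2.64, 7.65 and 1.68 CPM, and in Itga8+ MSCs at 0.495, 1.35 and 2.14 CPM. Only Itga8+ MSCs stood apart from another population, in that all their libraries lay below those of Sca-1+ MSCs and CD51+CD140a+ MSCs. The level was 7.61-fold higher in CD51+CD140a+ MSCs than in Itga8+ MSCs (log2 fold change 2.93, standard error 0.731, FDR = 0.0108). The other 5 comparisons of Calcrl did not pass the test, among them Sca-1+ MSCs against Itga8+ MSCs (1.65, standard error 0.708, FDR = 0.131, and 0.0726 with DESeq2). Single libraries decided others. Without Itga8+ replicate 3, the log2 fold change of Itga8+ MSCs over Sca-1+ MSCs was -2.22 (FDR = 0.0694), and without Itga8- replicate 2, whose level was the highest of its population, that of Itga8- Alcam+ BLCs over CD51+CD140a+ MSCs was -2.23 (FDR = 0.0374). The genes most like it in pattern were Srr (Pearson's r = 0.940), Dtx4 (r = 0.918) and Adamts4 (r = 0.913).

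Ramp1 (ENSMUSG00000034353), whose product makes the CGRP receptor with that of Calcrl, was counted at 162, 106 and 358 CPM in Itga8- Alcam+ BLCs replicates 1 to 3. In Itga8+ MSCs it was at 25.2, 105 and 8.84 CPM, in Sca-1+ MSCs at 14.6, 10.1 and 13.3 CPM and in CD51+CD140a+ MSCs at 7.70, 8.97 and 5.64 CPM. The libraries of Itga8- Alcam+ BLCs lay above all others, those of Itga8+ MSCs were spread over a range that took in all libraries of Sca-1+ MSCs, and CD51+CD140a+ MSCs lay below Sca-1+ MSCs. Itga8- Alcam+ BLCs were 16.5-fold higher than Sca-1+ MSCs (log2 fold change 4.04, standard error 0.787, FDR = 0.00411) and 28.0-fold higher than CD51+CD140a+ MSCs (4.81, standard error 0.816, FDR = 0.00102). Their 4.48-fold difference from Itga8+ MSCs did not pass the test (FDR = 0.192, and 0.0526 with DESeq2). Replicate 3 of Itga8- Alcam+ BLCs raised the mean behind these folds, which was 208 CPM beside a median of 162 CPM. Itga8+ MSCs were called higher than CD51+CD140a+ MSCs (2.64, standard error 0.741, FDR = 0.0195) and higher than Sca-1+ MSCs (1.88, standard error 0.721, FDR = 0.0974). Sca-1+ MSCs and CD51+CD140a+ MSCs did not pass the test (0.77, standard error 0.705, FDR = 0.564).

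Itga8+ replicate 2 decided the values of Ramp1 in the comparisons of Itga8+ MSCs. Without it, Itga8+ MSCs were not called against Sca-1+ MSCs (log2 fold change of Itga8+ MSCs over Sca-1+ MSCs 0.41, FDR = 0.652) or against CD51+CD140a+ MSCs (1.22, FDR = 0.104), and their log2 fold change over Itga8- Alcam+ BLCs was -3.58 (FDR = 0.00772). The call against Sca-1+ MSCs, near the threshold at FDR = 0.0974, was also lost with fold changes close to the one above. These were 1.99, 1.74 and 1.91 on the log2 scale without Sca-1+ replicates 1, 2 and 3 (FDR = 0.185, 0.242 and 0.200), 1.63 with a replicate block (FDR = 0.232) and 1.82 in a fit of just those populations (FDR = 0.183). Markers of other cells differed in the same library. The summed level of 9 myeloid and lymphoid markers, of which Cd3e was at 0, was 11839 CPM in Itga8+ replicate 2 and 5683 and 2306 CPM in the other two, and that of 7 erythroid markers, none at 0, was 1598 CPM, against 158 and 125 CPM. The summed level of 6 cartilage markers, none at 0, was 15342 CPM there, against 79275 and 125026 CPM. In Itga8- Alcam+ BLCs, replicate 3 had both the highest Ramp1 and the lowest cartilage sum (14576 CPM, against 45935 and 77798 CPM), and its myeloid and lymphoid sum was the lowest of its population (4339 CPM, against 6498 and 4523 CPM). The part of these cells in the level of Ramp1 was not tested. The genes most like Ramp1 in pattern were Trmt10c (Pearson's r = 0.965), Fabp3 (r = 0.962) and Dedd2 (r = 0.961).

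Ramp2 (ENSMUSG00000001240), whose product makes an adrenomedullin receptor with that of Calcrl, was counted at 93.9, 70.7 and 114 CPM in Sca-1+ MSCs replicates 1 to 3. It was at 21.1, 27.8 and 19.6 CPM in CD51+CD140a+ MSCs, at 12.1, 28.1 and 10.5 CPM in Itga8+ MSCs and at 5.83, 3.43 and 13.0 CPM in Itga8- Alcam+ BLCs. The libraries of Sca-1+ MSCs lay above all others, and those of CD51+CD140a+ MSCs above those of Itga8- Alcam+ BLCs. Sca-1+ MSCs were 4.07-fold higher than CD51+CD140a+ MSCs (log2 fold change 2.03, standard error 0.503, FDR = 0.0146), 5.51-fold higher than Itga8+ MSCs (2.46, standard error 0.512, FDR = 0.00772) and 12.6-fold higher than Itga8- Alcam+ BLCs (3.65, standard error 0.541, FDR = 0.000744). CD51+CD140a+ MSCs were 3.08-fold higher than Itga8- Alcam+ BLCs (FDR = 0.0289), and no setting tried ended any of these calls. The size of the folds over Itga8- Alcam+ BLCs depends on replicate 3, which raised their mean to 7.42 CPM beside a median of 5.83 CPM. Itga8+ MSCs did not pass the test against CD51+CD140a+ MSCs (-0.44, Itga8+ MSCs over CD51+CD140a+ MSCs, FDR = 0.514) or against Itga8- Alcam+ BLCs (1.19, standard error 0.497, FDR = 0.341). Ramp2 and Calcrl are known from endothelial cells, which the CD31- gate was set to remove. The summed level of 12 endothelial markers, none at 0, was 114 to 157 CPM in Sca-1+ MSCs, 76.3 to 95.9 CPM in CD51+CD140a+ MSCs, 35.8 to 88.0 CPM in Itga8+ MSCs and 31.9 to 52.0 CPM in Itga8- Alcam+ BLCs. The sums rest on few genes. Tek made up 69.9 CPM of the mean sum of Sca-1+ MSCs and at most 3.07 CPM of the others, and Eng made up 55.4 CPM of that of CD51+CD140a+ MSCs and 35.9 CPM of that of Sca-1+ MSCs. Without both, sums added after the data were seen, the ranges overlapped, at 26.6 to 33.8 CPM in Sca-1+ MSCs, 15.8 to 41.9 CPM in CD51+CD140a+ MSCs, 19.5 to 46.0 CPM in Itga8+ MSCs and 27.5 to 36.1 CPM in Itga8- Alcam+ BLCs. Of the 12 genes, 2 had their highest mean in Sca-1+ MSCs, where Ramp2 had its own, 2 in Itga8- Alcam+ BLCs and 4 each in Itga8+ MSCs and CD51+CD140a+ MSCs. The part of endothelial cells in the level of Ramp2 was not tested. The genes most like Ramp2 in pattern were Ankrd29 (Pearson's r = 0.984), Rnf13 (r = 0.973) and Stxbp3 (r = 0.971).

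Ramp3 (ENSMUSG00000041046), whose product can also make an adrenomedullin receptor, had few reads. It was counted at 1.04, 4.57 and 0.578 CPM in Itga8+ MSCs and at 1.74, 2.13 and 2.16 CPM in Itga8- Alcam+ BLCs. It was at 0.277, 0.661 and 0.984 CPM in Sca-1+ MSCs. Of the libraries of CD51+CD140a+ MSCs, replicate 1 was at 0.273 CPM and the others had no read. All libraries of Itga8+ MSCs and Itga8- Alcam+ BLCs lay above those of CD51+CD140a+ MSCs, which had 10 reads in all. The log2 fold changes over CD51+CD140a+ MSCs were 4.38 in Itga8+ MSCs (standard error 1.23, FDR = 0.0196) and 4.35 in Itga8- Alcam+ BLCs (standard error 1.23, FDR = 0.0196). Both calls held with each library of the populations compared left out in turn, but their size rests on single libraries. Without Itga8+ replicate 2 the mean of Ramp3 in Itga8+ MSCs was 0.808 CPM in place of 2.06 CPM, and the log2 fold change was 3.07 (FDR = 0.0749). Without CD51+CD140a+ replicate 1 no read was left in that population, and the fitted values of 8.50 and 8.46 then depend on the count that the fit adds to 0. The remaining 4 comparisons of Ramp3 did not pass the test, although Sca-1+ MSCs were called higher than CD51+CD140a+ MSCs without CD51+CD140a+ replicate 1, the only library of that population with reads (FDR = 0.0149). Its highest library was Itga8+ replicate 2, which was also the highest of its population in Ramp1 and in the myeloid and lymphoid sum. The genes most like Ramp3 in pattern were Wif1 (Pearson's r = 0.951), Oxnad1 (r = 0.945) and S100a8 (r = 0.942), a neutrophil gene on the myeloid and lymphoid list, which was at 81.9 to 1954 CPM in Itga8+ MSCs, 232 to 557 CPM in Itga8- Alcam+ BLCs, 25.6 to 71.7 CPM in Sca-1+ MSCs and 8.47 to 28.6 CPM in CD51+CD140a+ MSCs. The part of such cells in the level of Ramp3 was not tested.

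The leading RAMP gene per length differed between populations. Ramp1 made up 94.4% ± 1.24 of the summed RAMP level in TPM in Itga8- Alcam+ BLCs and 61.7% ± 15.2 in Itga8+ MSCs (SD, n = 3). Ramp2 made up 73.3% ± 3.14 in CD51+CD140a+ MSCs and 85.7% ± 1.28 in Sca-1+ MSCs. The share of Ramp3 had a mean of 6.48% in Itga8+ MSCs, 0.722% in CD51+CD140a+ MSCs, 2.54% in Itga8- Alcam+ BLCs and 1.43% in Sca-1+ MSCs. In every library of Itga8- Alcam+ BLCs the share of Ramp1 was above 93%, from 93.1% to 95.6%, and in every library of Sca-1+ MSCs and CD51+CD140a+ MSCs it was 27.9% or less. In Itga8+ MSCs it was 65.4%, 74.7% and 44.9%, and in replicate 3 Ramp2 led with 48.6%. The exon length of Ramp2 bears on these shares, because it includes the bases shared with Vps25. With those bases left out of the length, an alternative chosen after the data were seen, the share of Ramp1 was 93.0% in Itga8- Alcam+ BLCs and 53.9% in Itga8+ MSCs, and that of Ramp2 was 80.5% in CD51+CD140a+ MSCs and 90.0% in Sca-1+ MSCs.

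**Figure D2:**
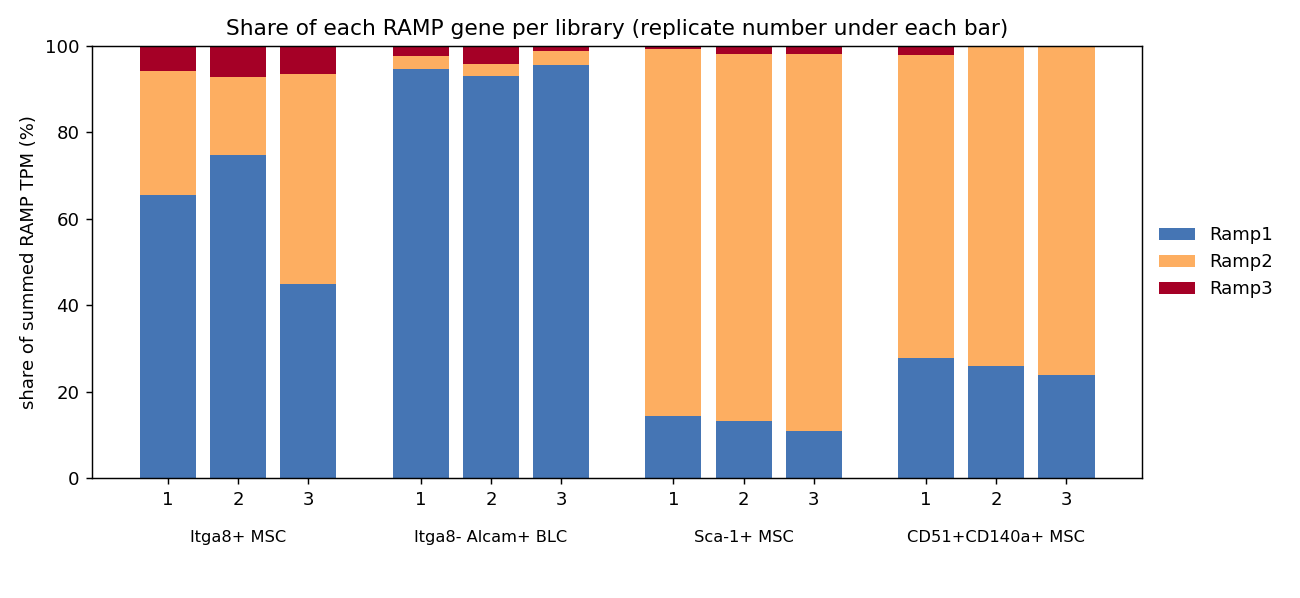
Stacked bars, 1 for each of the 12 libraries, of the percentage of the summed TPM of Ramp1, Ramp2 and Ramp3 that each gene made up, with the replicate number under each bar. Ramp1 takes 93.1% to 95.6% of each bar of Itga8- Alcam+ BLCs, and Ramp2 takes 84.9% to 87.1% of each bar of Sca-1+ MSCs.

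Per length, the RAMP genes together exceeded Calcrl in every library. The median ratio of the summed RAMP level to that of Calcrl was 126 in Itga8+ MSCs, 5.23 in CD51+CD140a+ MSCs, 105 in Itga8- Alcam+ BLCs and 32.1 in Sca-1+ MSCs. The libraries spread widely, from 24.0 to 361 in Itga8- Alcam+ BLCs, 14.9 to 169 in Itga8+ MSCs and 23.7 to 88.2 in Sca-1+ MSCs, ranges that overlap. Those of CD51+CD140a+ MSCs, from 2.26 to 11.3, lay below all of them. The gene of the ligand adrenomedullin, Adm, was at 59.4 ± 4.82 CPM in Sca-1+ MSCs, 40.6 ± 8.88 CPM in CD51+CD140a+ MSCs, 33.8 ± 22.5 CPM in Itga8- Alcam+ BLCs and 19.7 ± 16.0 CPM in Itga8+ MSCs (SD, n = 3), and was called only between Sca-1+ MSCs and Itga8+ MSCs (log2 fold change 1.59, standard error 0.565, FDR = 0.0774). Of 3 ligand and partner genes tested, 2 were called in at least 1 comparison (54.2% of all genes). The other was Adm2, which encodes a related ligand, is named here after its values were seen and was at most 0.761 CPM in the mean. Calca, from which CGRP is made, was not tested, at 0 to 0.205 CPM in the mean. Crcp, which encodes a further component of the CGRP receptor, was called in none and was at 16.9 to 27.6 CPM in the mean.

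**Figure D3:**
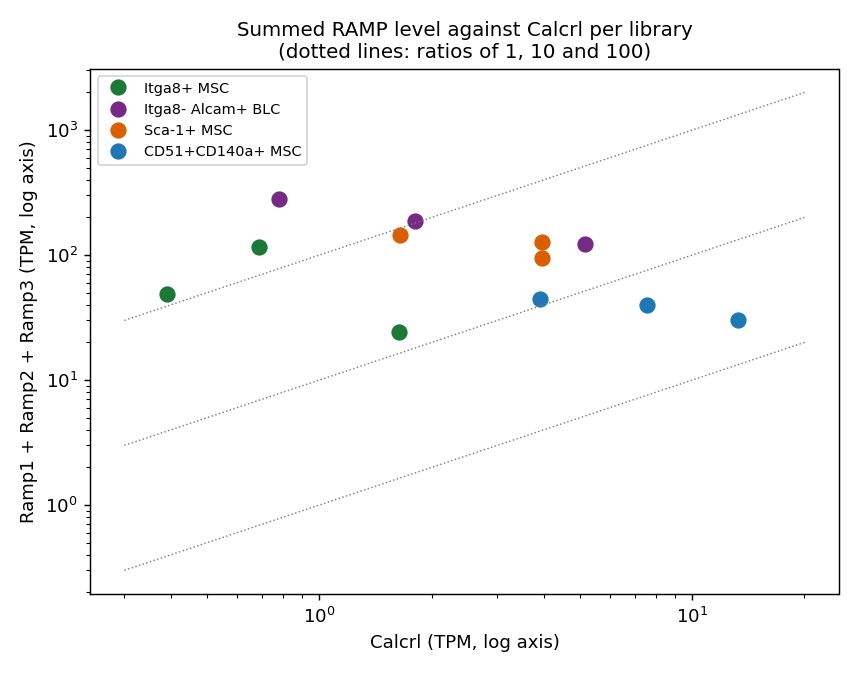
Summed level of Ramp1, Ramp2 and Ramp3 against the level of Calcrl, both in TPM on log axes, with 1 point for each library coloured by population and dotted lines at ratios of 1, 10 and 100. The 3 libraries of CD51+CD140a+ MSCs have ratios of 2.26 to 11.3, below those of every other library.

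Prokr1 (ENSMUSG00000049409), 1 of the 2 prokineticin receptor genes, was counted at 21.4, 12.8 and 8.62 CPM in Sca-1+ MSCs replicates 1 to 3. It was at 0, 0.602 and 0.480 CPM in Itga8- Alcam+ BLCs, at 0.383, 0 and 0.805 CPM in CD51+CD140a+ MSCs, and at 0.116 CPM in Itga8+ replicate 3 with no read in the other libraries of Itga8+ MSCs. The libraries of Sca-1+ MSCs lay above all others, and the other populations overlapped. Sca-1+ MSCs were 39.0-fold higher than Itga8- Alcam+ BLCs (log2 fold change 5.28, standard error 1.23, FDR = 0.0106) and 35.8-fold higher than CD51+CD140a+ MSCs (5.16, standard error 1.20, FDR = 0.01). Against Itga8+ MSCs, which had 2 reads in all, the ratio of scaled counts was 395, with an exact 95% interval from 109 to 3263 that covers counting error only (FDR = 0.00387). No setting tried ended these calls. The size of the folds over Itga8- Alcam+ BLCs and CD51+CD140a+ MSCs is uncertain, as those populations had 21 and 39 reads, unevenly spread over their libraries. The comparisons among the other populations did not pass the test, although Itga8+ MSCs against CD51+CD140a+ MSCs did with DESeq2 (FDR = 0.0764), without CD51+CD140a+ replicate 2 (FDR = 0.0552) and without Itga8+ replicate 3, the only library of that population with reads (FDR = 0.0885). Prokr2, the sister receptor gene, was at 0.247, 0 and 4.10 CPM in Itga8+ MSCs replicates 1 to 3, so that replicate 3 carried its mean, and had no read elsewhere. The ligand genes Prok1 and Prok2 were at most 0.113 CPM in the mean and were not tested. The genes most like Prokr1 in pattern were Efhd1 (Pearson's r = 0.991), Col6a6 (r = 0.981) and Ppl (r = 0.976), which were at 53.3, 76.5 and 105 CPM in the mean in Sca-1+ MSCs and at most 0.964 CPM in the mean elsewhere.

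A call needed a fold change of over 2 and an FDR below 0.1, and each count of receptor genes called is set beside the share of all 18648 genes tested that was called. Of the 7 receptor genes tested, 2 were called for Itga8+ MSCs against Itga8- Alcam+ BLCs, Adrb3 and Pth1r, both lower in Itga8+ MSCs, where 3.82% of all genes were called. Against Sca-1+ MSCs, 4 of the 7 were called in Itga8+ MSCs (21.7% of all genes), with Pth1r and Ramp1 higher and Ramp2 and Prokr1 lower in Itga8+ MSCs. Itga8+ MSCs differed from CD51+CD140a+ MSCs in 4 calls (35.6% of all genes), with Ramp1 and Ramp3 higher and Adrb3 and Calcrl lower in Itga8+ MSCs. Itga8- Alcam+ BLCs and Sca-1+ MSCs differed in 5 calls (26.4% of all genes), with Adrb3, Pth1r and Ramp1 higher and Ramp2 and Prokr1 lower in Itga8- Alcam+ BLCs. Against CD51+CD140a+ MSCs, 5 were called in Itga8- Alcam+ BLCs (35.3% of all genes), with Pth1r, Ramp1 and Ramp3 higher and Adrb3 and Ramp2 lower in Itga8- Alcam+ BLCs. For CD51+CD140a+ MSCs against Sca-1+ MSCs, 4 were called (20.5% of all genes), with Adrb3 and Pth1r higher and Ramp2 and Prokr1 lower in CD51+CD140a+ MSCs. Adrb3 and Pth1r were each called in 5 of the 6 comparisons, Ramp1 and Ramp2 in 4, Prokr1 in 3, Ramp3 in 2 and Calcrl in 1. These comparisons share libraries and are not independent of each other.

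**Figure D4:**
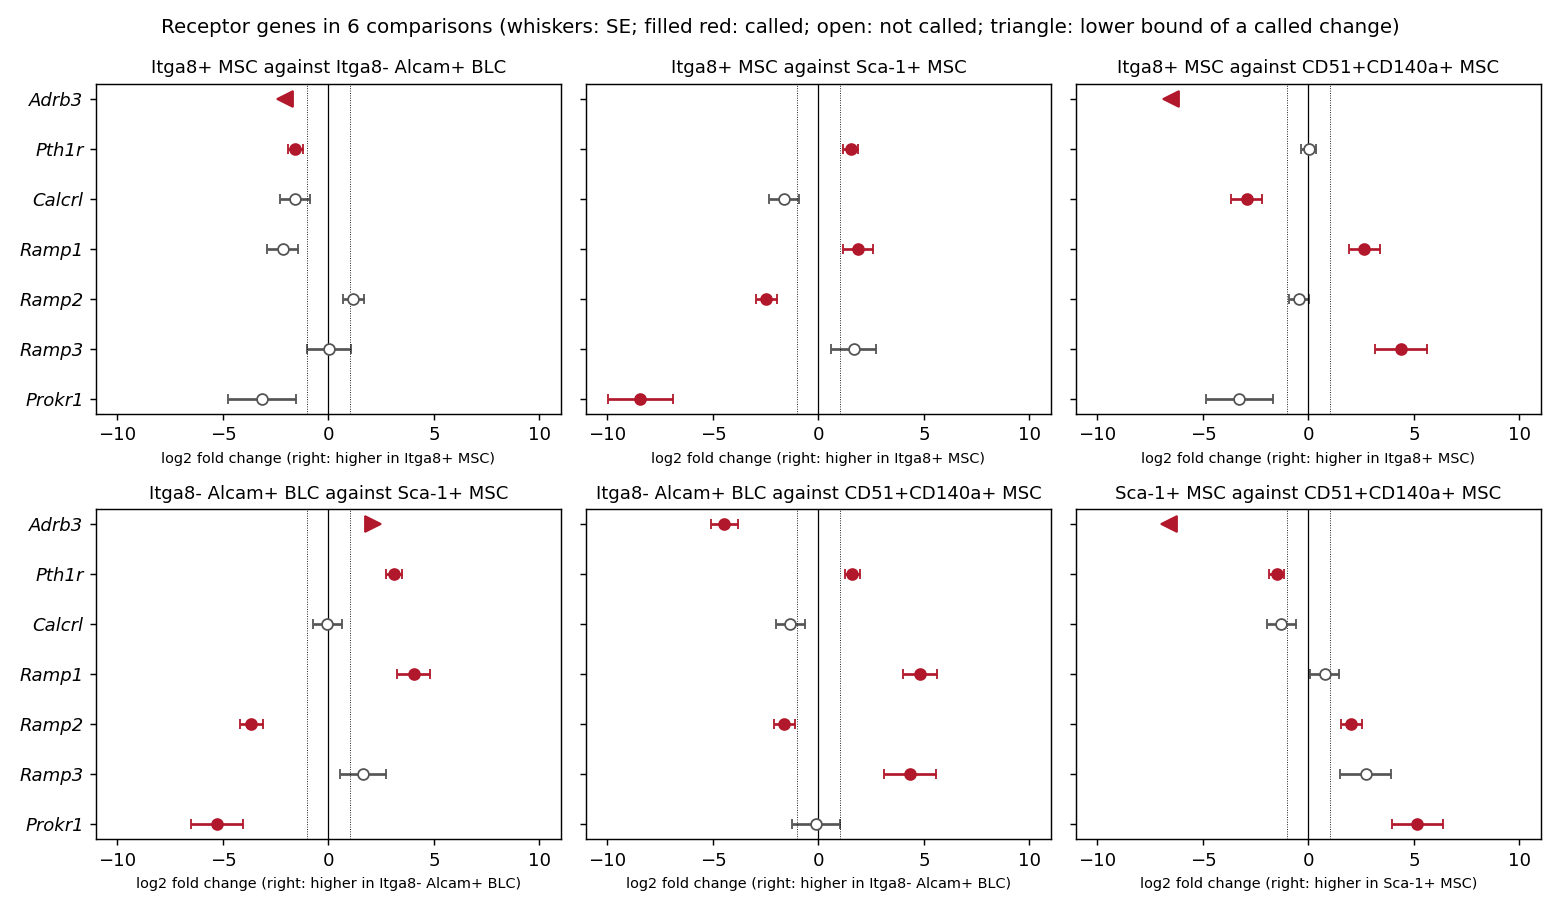
Log2 fold changes of the 7 receptor genes tested in the 6 comparisons, with standard errors as whiskers, where values to the right are higher in the population named first. Filled red points passed the test, open points did not, red triangles are lower bounds for Adrb3 where a population had no read, dotted lines mark a fold change of 2, and the value of Prokr1 against Itga8+ MSCs, which had 2 reads, depends on the prior count of the fit. Between Itga8+ MSCs and Itga8- Alcam+ BLCs 2 genes passed, and 4 or 5 did in each other comparison.

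Among other receptor genes for nerve and hormone signals, the largest lists were of 27 neurotransmitter, neuropeptide and neurotrophin receptor genes, of which 22 were called in at least 1 comparison, and of 22 hormone receptor genes of the cell surface, of which 17 were, beside 54.2% of all genes. Between Itga8- Alcam+ BLCs and CD51+CD140a+ MSCs, 15 of the 27 were higher and 2 lower in Itga8- Alcam+ BLCs (63.0%, beside 35.3% of all genes), and their median log2 fold change was 3.58, beside 0.091 for all genes tested. The share was lowest, at 22.2%, for Itga8+ MSCs against Itga8- Alcam+ BLCs (3.82% of all genes) and for CD51+CD140a+ MSCs against Sca-1+ MSCs (20.5% of all genes), and the median log2 fold change of Sca-1+ MSCs over CD51+CD140a+ MSCs was 0.073. Some of the 27, among them Chrnb4, Chrm1 and Htr7, passed the filter only through Itga8- Alcam+ BLCs and were bound to be higher there. Htr1b passed only through CD51+CD140a+ MSCs. The filter thus set these counts and medians in part, and no conclusion is drawn from them. Ntrk2, a neurotrophin receptor gene, was at 124 ± 42.8 CPM in Sca-1+ MSCs and 1.63 ± 0.332 CPM in CD51+CD140a+ MSCs, with the bone-derived Alcam+ populations between them (SD, n = 3). Gfra3, the gene of the co-receptor for artemin, was at 18.9 ± 3.35 CPM in Itga8- Alcam+ BLCs and 1.27 ± 0.709 CPM in Itga8+ MSCs, and had no read in the other populations. The summed level of 8 Schwann cell markers was 196 to 276 CPM in Itga8- Alcam+ BLCs and 168 to 190 CPM in Itga8+ MSCs, 142 to 199 CPM in CD51+CD140a+ MSCs and 100.4 to 130 CPM in Sca-1+ MSCs, and the part of such cells in the level of Gfra3 was not tested. Of 7 further receptor genes of the family to which Pth1r and Calcrl belong, 3 were called in at least 1 comparison (54.2% of all genes), of which Vipr1, named here after its values were seen, was at most 0.896 CPM in the mean. Adcyap1r1, the receptor gene for the neuropeptide PACAP, was at 70.1 ± 5.93 CPM in CD51+CD140a+ MSCs and at most 1.89 ± 0.685 CPM elsewhere, and was higher there in all 3 comparisons (FDR = 0.000499, 0.000618 and 0.00335 against Itga8+ MSCs, Itga8- Alcam+ BLCs and Sca-1+ MSCs). Vipr2, a receptor gene for the same peptide and for VIP, was at 17.9 ± 9.57 CPM in Itga8+ MSCs and 5.08 ± 2.04 CPM in Itga8- Alcam+ BLCs (log2 fold change 1.81, standard error 0.499, FDR = 0.0926). Its means were higher in the other populations, at 35.1 ± 2.45 CPM in Sca-1+ MSCs and 36.0 ± 17.4 CPM in CD51+CD140a+ MSCs.

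Genes that act after these receptors are set beside all genes tested, of which 54.2% were called in at least 1 comparison. Of 16 genes of G proteins and adenylyl cyclases, 10 were called in at least 1 comparison, as were 11 of 19 genes of protein kinase A and cyclic AMP effectors, 10 of 13 of phosphodiesterases and 8 of 13 of receptor desensitisation. Adcy2, an adenylyl cyclase gene, was at 427 ± 67.8 CPM in CD51+CD140a+ MSCs, and its log2 fold change there over Itga8+ MSCs, at 77.9 ± 16.6 CPM, was 2.46 (standard error 0.268, FDR = 4.77e-05). Pde4b, which encodes an enzyme that degrades cyclic AMP, was at 678 ± 72.8 CPM in Itga8+ MSCs, 516 ± 104 CPM in Itga8- Alcam+ BLCs, 178 ± 27.2 CPM in Sca-1+ MSCs and 19.7 ± 9.09 CPM in CD51+CD140a+ MSCs (SD, n = 3). The log2 fold change of Pde4b in Itga8+ MSCs over CD51+CD140a+ MSCs was 5.10 (standard error 0.384, FDR = 3.59e-06). Pde1a, another phosphodiesterase gene called in 5 comparisons, was highest in CD51+CD140a+ MSCs and lowest in Itga8+ MSCs, with 105 ± 1.47 CPM in CD51+CD140a+ MSCs, 27.9 ± 4.91 CPM in Itga8- Alcam+ BLCs, 26.7 ± 3.22 CPM in Sca-1+ MSCs and 3.52 ± 1.17 CPM in Itga8+ MSCs (SD, n = 3). Rgs4, which encodes an inhibitor of G protein signals, was at 82.5 ± 19.6 CPM in CD51+CD140a+ MSCs and at 6.25 ± 3.30 CPM in Itga8+ MSCs (log2 fold change 3.72, standard error 0.423, FDR = 6.23e-05). Gnai1, the gene of an inhibitory G protein, was at 32.8 ± 17.1 CPM in Itga8+ MSCs and 116 ± 36.6 CPM in Itga8- Alcam+ BLCs (log2 fold change 1.82, standard error 0.388, FDR = 0.028).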

How the data were processed

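RNA-seq of 12 libraries, 3 for each of 4 sorted populations, was analysed. The authors made cDNA with a SMART-Seq kit and Nextera XT libraries, and deposited raw counts of reads per Ensembl gene, 1 file for each library, without normalization. The labels' processing notes name FastQC 0.11.7, Trimmomatic 0.38, HISAT2 2.1.0, SAMtools 1.9 and featureCounts 1.6.3 on mm10, whereas the study's methods name TopHat and Bowtie2 for mapping, and which was used for these files was not settled. The annotation release is not given in the sources used here. Groups were taken from the labels, with their replicate numbers.

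Counts of all libraries were fitted in 1 model with edgeR 4.0.16 (R 4.3.3), TMM normalization (factors 0.783 to 1.17) and the two-sided quasi-likelihood test, over the 18648 genes that reached 0.5 CPM in any library, and all 6 comparisons of populations were made. The thresholds of the study were used, an FDR (Benjamini-Hochberg, over all genes tested) below 0.1 together with a fold change of over 2. A standard error is the log2 fold change divided by the root of the F statistic. An exact permutation test of 3 libraries against 3 cannot give less than 0.1 and was not used. GENCODE M21 gave symbols, positions and exon lengths (49326 of 49585 genes). Where a population had no read of a gene, the fold is a lower bound, taken against 3 counts in each of its libraries.

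The named genes are the receptor genes, of each related list at most the 3 called in the most comparisons, and for each receptor gene the 3 genes with the highest Pearson's r of log2(CPM + 1) over the libraries among those with a mean of at least 10 CPM in a population. The receptor genes and all lists were chosen with earlier results of these data known. Alternatives were DESeq2 1.42.0, RLE size factors, library totals alone, other filters on low counts, a fit of the 2 populations compared, a replicate block and each library left out. Some genes of the related lists are not reported here by name.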

Additional observations from a re-analysis of the deposited data

How the results depend on the processing

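Of the 42 values of 7 receptor genes in 6 comparisons, no called one reversed direction under any alternative. The calls were all kept with RLE size factors, without a filter beyond 1 count and with at least 10 counts in 3 libraries. DESeq2 called 4 more, a fit of the 2 populations compared called 2 more and 3 fewer, and library totals alone called 1 more and 1 fewer. Between Itga8+ MSCs and Itga8- Alcam+ BLCs, the 2 receptor genes called became 0 in a fit of those populations alone, 1 with library totals alone and 1 to 3 with a library left out, where Itga8- replicates 2 and 3 each gave 1.

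Over all genes, that comparison called 712, and 1203 with DESeq2, 276 in a fit of those populations alone and 419 to 880 with a library left out. Between Itga8+ MSCs and Sca-1+ MSCs it was 4055, and 2383 to 5879 with a library left out. The replicate numbers did not pair the libraries: of 18 pairs of libraries with the same number, 5 had a correlation of their deviations above 0.1 (range -0.736 to 0.342). With a replicate block, 433 genes were called between Itga8+ MSCs and Itga8- Alcam+ BLCs, and of the receptor genes only the call of Ramp1 between Itga8+ MSCs and Sca-1+ MSCs was lost (log2 fold change 1.63).

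Library totals alone moved the median of all genes, on the log2 scale, from 0.084 to 0.34 for Itga8+ MSCs over Itga8- Alcam+ BLCs, and the split of calls from 310 higher and 402 lower to 495 and 313. For Itga8- Alcam+ BLCs over Sca-1+ MSCs the median moved from 0.12 to -0.068 and the split from 2706 and 2224 to 2171 and 2929, and over CD51+CD140a+ MSCs from 0.091 to -0.24 and from 3808 and 2770 to 2934 and 4090.

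Without division by length, the share of Ramp2 in Sca-1+ MSCs was 87.3%. With the bases shared with Vps25 left out, the share of Ramp1 in Itga8- Alcam+ BLCs was 93.0%, and that of Ramp2 was 80.5% in CD51+CD140a+ MSCs and 90.0% in Sca-1+ MSCs. Of the 21 genes named as most like a receptor gene in pattern, 1 was also named with Spearman's rho in place of Pearson's r, so those names rest on the measure. Where a change went with a setting, the cause was not tested. Depth limits Adrb1, Adrb3 outside CD51+CD140a+ MSCs, Ramp3 in CD51+CD140a+ MSCs and Prokr1 outside Sca-1+ MSCs, which rest on at most 39 reads in a population.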
